A study of Mus musculus with 6 samples.

Results

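The genes described here are those of the brain's main neurotrophin system: Bdnf and Ntf3, which encode secreted growth factors; Ntrk2 and Ntrk3, which encode the receptor kinases TrkB and TrkC; Ngfr and Sort1, which encode the receptors p75 and sortilin; and Vgf, which encodes a secreted peptide precursor. Their probe sets were taken where the array's annotation gave exactly 1 gene symbol equal to 1 of these 7 names, which found 25 of 45037 probe sets, for 6 of the 7 genes, among 18193 genes with such a probe set. Ntf3 had no such probe set and is not analysed here. Ntrk2 and Ntrk3 had 8 probe sets each, Ngfr and Sort1 3 each, Bdnf 2 and Vgf 1.

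The samples are 6 Affymetrix arrays of ribosome-bound RNA from the cortex of mice of the DU9 line, in which a BAC transgene with the regulatory region of Glt25d2 (Colgalt2) puts a tag on the ribosomes of layer 5 pyramidal cells. All mice carried this transgene on a background backcrossed 3 to 5 generations from FVB to C57BL/6. For 15 to 18 days, 1 group drank fluoxetine, a blocker of serotonin reuptake, at 0.167 mg/ml in 1% saccharine, and the other drank 1% saccharine alone as the vehicle. Each group has 3 arrays, numbered 1 to 3 and labelled as biological replicates. The labels do not give the age of the mice, their sex or how many were pooled for an array. With 3 arrays a group, precision is limited throughout.

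The title, source and treatment fields name 1 treatment for each array, and the description field names the other one. The groups follow the first of these, hence the names fluoxetine-titled and vehicle-titled. If the description field were right, every difference between treatments given here would change its sign.

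Neurotrophins are made as larger precursors, which furin and the prohormone convertases cut to the mature form. Mature BDNF binds TrkB, mature neurotrophin-3 binds TrkC, and p75 together with sortilin binds the uncut precursors. Bdnf is transcribed from several start sites that join different first exons to 1 shared coding exon, and some of these starts respond to neuronal firing. TrkB exists as a full-length kinase and as a truncated form without the kinase domain, and the truncated form is the main one in astrocytes. Vgf was found as a gene induced by nerve growth factor and responds to BDNF. In the cortex, layer 5 pyramidal cells make BDNF and carry it along their axons, and BDNF signalling through TrkB is among the pathways most often studied in antidepressant action.

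RefSeq lists 7 start sites of Bdnf in assembly GRCm38.p6. The 250 bases before the third of them, the promoter usually numbered IV and known for its response to neuronal activity, are printed because both Bdnf probe sets carry the suffix that Affymetrix gives to sequence shared by several transcript forms of a gene. Neither value separates the starts. The window is chr2:109692186-109692435 on the plus strand, and capitals mark a cAMP response element with 1 changed base, TCACGTCA, at bases -38 to -31 from the start.

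Bdnf start 3: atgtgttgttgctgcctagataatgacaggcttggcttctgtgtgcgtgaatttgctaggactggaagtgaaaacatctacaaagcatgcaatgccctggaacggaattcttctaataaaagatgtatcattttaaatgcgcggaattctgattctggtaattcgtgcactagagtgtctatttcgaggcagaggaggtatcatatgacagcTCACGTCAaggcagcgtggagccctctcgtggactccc

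On both strands, TCACGTCA was present before 1 of the 7 Bdnf starts and before 0.35% of all 32851 promoters in the table. It was searched because it is known from this promoter, so the match is no finding. The unchanged element, TGACGTCA, was present before 0 of the 7 and before 1.55% of all. Its first bases, TGACG, overlap the printed element on the minus strand and were present before 1 of the 7 and 17.8% of all.

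For the 5 member genes tested, no difference between fluoxetine-titled and vehicle-titled arrays was found beyond the spread between arrays. A probe set was tested where the mean intensity of at least 1 group reached 50, which kept 16 of the 25, for Bdnf, Ntrk2, Ntrk3, Sort1 and Vgf. In limma, with p-values adjusted by Benjamini-Hochberg across the 19073 probe sets kept, 0 of the 16 passed an adjusted p of 0.05 (smallest adjusted p = 1.00), beside 0% of all probe sets. At an unadjusted p under 0.05 there were 0 of the 16 members, beside 0.634% of all, and 0 with the array number as a block, beside 4.02% of all. The groups overlapped for all 16, while they did not overlap for 3.65% of all probe sets kept, 1.64% with the fluoxetine-titled arrays higher and 2.01% lower. In this RNA, fewer cells of a type and less RNA per cell cannot be told apart.

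The 16 log2 differences lay between -0.16 and 0.25, 6 of them positive and 10 negative. Their median was -0.059, beside -0.0096 for all probe sets kept. Without the block, the 95% confidence interval of 14 of the 16 lay within 2-fold in either direction, as it did for 94.0% of all probe sets kept, and that of 6 lay within 1.5-fold, against 62.7% of all. The 2 probe sets whose interval reached past 2-fold were both of Ntrk3. With the array number as a block, all 16 intervals lay within 2-fold, beside 99.5% of all, and 15 lay within 1.5-fold, beside 90.6% of all. The other one, of Ntrk2 1435196_at, reached 0.59 on the log2 scale. Errors and intervals given for single genes are those without the block. Between arrays of equal number, called a pair from here on, the sign was the same in all 3 pairs for 4 of the 16, beside 24.2% of all probe sets kept.

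**Figure D1:**
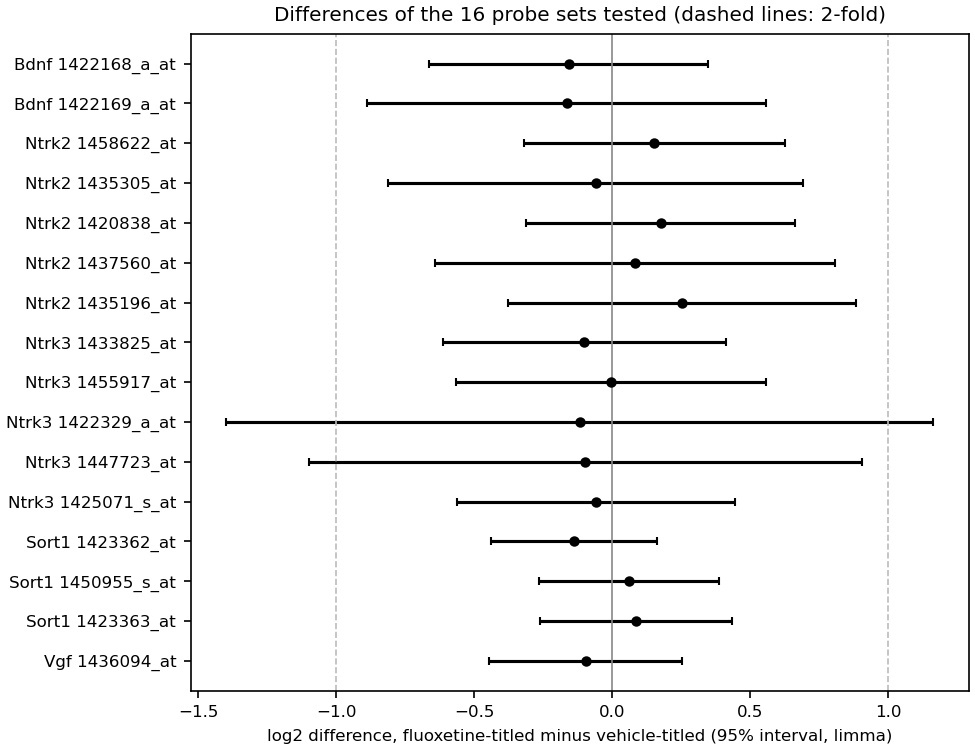
Log2 difference of each of the 16 probe sets tested, fluoxetine-titled minus vehicle-titled, with its 95% confidence interval from limma without the block (n = 3 arrays per group). Every interval contains 0, and the Ntrk3 probe sets 1422329_a_at and 1447723_at are the ones that cross a dashed 2-fold line.

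Bdnf was read by 2 probe sets, and both varied more with the array number than with the treatment. For 1422168_a_at the intensities were 406, 339 and 248 on fluoxetine-titled arrays 1, 2 and 3, and 418, 367 and 309 on vehicle-titled arrays 1, 2 and 3. The highest values of either group were on the arrays numbered 1 and the lowest on those numbered 3, and the groups overlapped. Within the pairs, the fluoxetine-titled value was the lower one each time, by a log2 difference of -0.041, -0.11 and -0.32. A negative difference in all 3 pairs was seen for 13.4% of all probe sets kept. The difference of the means was -0.16 ± 0.21 (SE, n = 3 per group), with an interval from 0.632-fold to 1.27-fold. Without fluoxetine array 3 alone it was 0.037, a refit that leaves the array numbers unequal between the groups. With pair 1, 2 or 3 left out whole it was -0.22, -0.18 and -0.078.

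The second Bdnf probe set, 1422169_a_at, had 313, 167 and 149 on the fluoxetine-titled and 281, 218 and 178 on the vehicle-titled arrays. It had the same order of array numbers, but in pair 1 the fluoxetine-titled array was the higher one, so the 3 pair differences were 0.15, -0.39 and -0.26. Its difference of means was -0.16 ± 0.31 (SE), with an interval from 0.541-fold to 1.47-fold, and was 0.0056 without vehicle array 1 and 0.041 without fluoxetine array 3. With pair 1, 2 or 3 left out whole it was -0.32, -0.053 and -0.12. Averaged over both treatments, the arrays numbered 1 lay 0.27 and 0.50 above the mean of all 6 on the log2 scale, for 1422168_a_at and 1422169_a_at, and the arrays numbered 3 stood at -0.31 and -0.36 from it.

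Vgf, whose protein is cut into several neuropeptides and is stored in the same kind of vesicle as BDNF, was read by 1 probe set, 1436094_at. Its intensities were 4441, 4949 and 5066 on the fluoxetine-titled and 4395, 5430 and 5706 on the vehicle-titled arrays. The arrays numbered 1 were the lowest of each group, opposite to Bdnf, and the fluoxetine-titled array was lower in pairs 2 and 3 (-0.13 and -0.17), while in pair 1 the difference was 0.015. The difference of means was -0.097 ± 0.15 (SE), with an interval from 0.733-fold to 1.19-fold, narrower than those of both Bdnf probe sets. The highest Vgf intensity was 1.30 times the lowest, beside 1.69 and 2.10 times for the Bdnf probe sets and a median of 1.47 times over all probe sets kept.

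**Figure D2:**
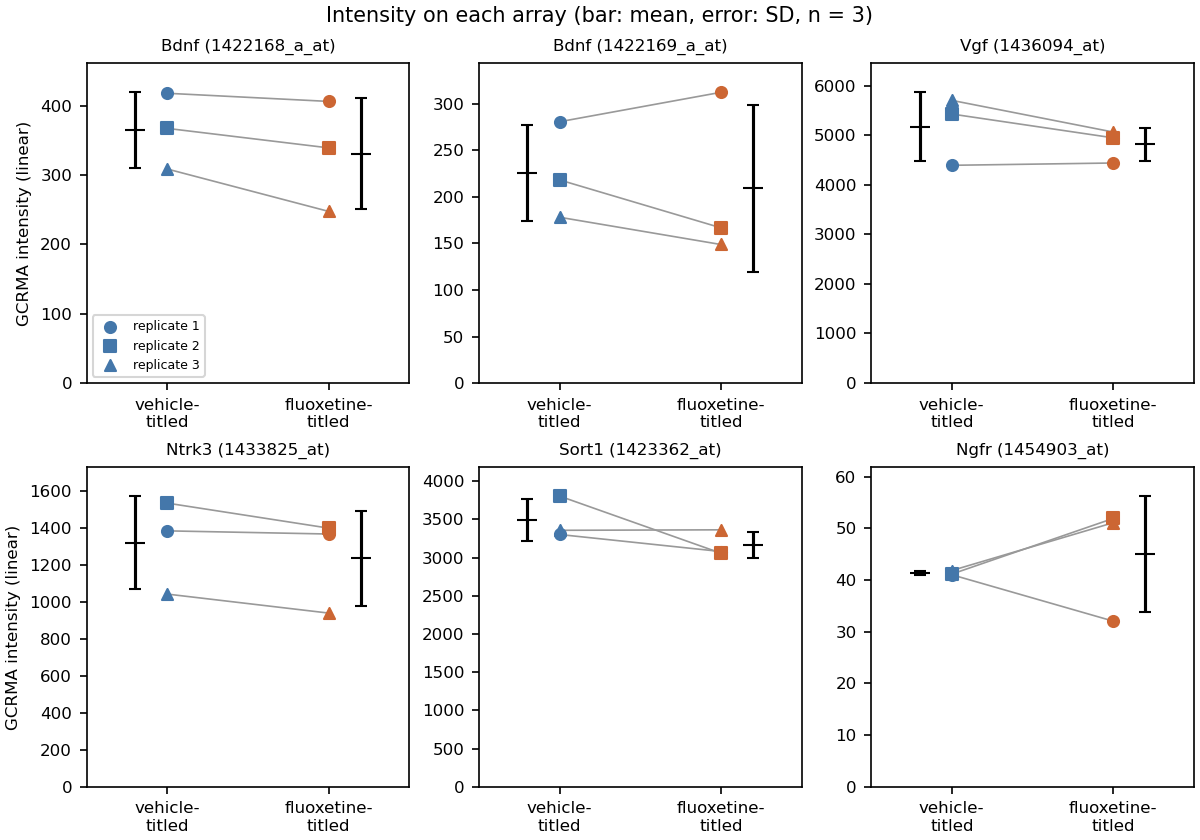
Intensity of 6 probe sets of Bdnf, Vgf, Ntrk3, Sort1 and Ngfr on each array, on a linear axis from 0; grey lines join arrays of the same replicate number, and black bars give the group mean ± SD (n = 3). Bdnf is highest on the arrays numbered 1 and lowest on those numbered 3 in both groups, and the groups overlap in every panel.

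TrkB, the receptor of BDNF, is encoded by Ntrk2, for which 5 of 8 probe sets were tested. The other 3 stayed between 5.51 and 9.06 on all 6 arrays and are not read further. The 5 probe sets did not behave alike, and they fell into different shapes over the arrays. The files do not say which probe set reads the full-length and which the truncated receptor.

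The probe sets 1420838_at and 1435196_at were lowest on vehicle array 3. The intensities of 1420838_at were 2348, 3146 and 2678 on the fluoxetine-titled and 2425, 3017 and 1875 on the vehicle-titled arrays. Its pair differences were -0.047, 0.060 and 0.51, so pair 3 alone carried a difference above 0.1. Those of 1435196_at were 551, 666 and 497 on the fluoxetine-titled and 497, 667 and 325 on the vehicle-titled arrays, with pair differences of 0.15, -0.0022 and 0.61. The differences of means were 0.18 ± 0.21 and 0.25 ± 0.27 (SE). Without vehicle array 3 they were -0.00033 and -0.022, and without pair 3 they were 0.0066 and 0.073.

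Most astrocyte markers were also lowest on vehicle array 3, 13 of the 16 read. The exceptions were Slc1a2 and Plpp3, lowest on fluoxetine array 1, and S100b, lowest on vehicle array 2. Of 18 astrocyte markers listed, 16 had a probe set and all of these passed the filter; 15 had a positive difference of means, and the median pair differences were -0.066, -0.014 and 0.73, with all 16 positive in pair 3. Their summed intensity lay between 54969 and 64326 on the fluoxetine-titled and between 39873 and 66834 on the vehicle-titled arrays, lowest on vehicle array 3. In these sums Clu alone gave between 23177 and 28360 on the fluoxetine-titled and between 18131 and 28870 on the vehicle-titled arrays. The astrocyte water channel gene Aqp4 had 247 on vehicle array 3 and between 437 and 673 on the other arrays, and the gap junction gene Gja1 had 3282 there and between 5691 and 7389 elsewhere. Oligodendrocyte, microglia and interneuron markers had median pair 3 differences of 0.54, 0.67 and 0.40 too. Endothelial, mural and meningeal markers were higher in every pair by the median (0.25, 0.40 and 0.15), and 8 of the 9 tested, of 15 listed, had a positive difference of means, 4 of them higher in all 3 pairs. Their summed intensity lay between 16001 and 20382 on the fluoxetine-titled and between 12637 and 19649 on the vehicle-titled arrays. Over all genes, 47.8% had a positive difference of means, 10.9% were higher in all 3 pairs, and the median pair 3 difference was -0.00081. The part of these cell types in the Ntrk2 values was not tested.

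The probe sets 1435305_at and 1437560_at had another shape, lowest on both arrays numbered 1. The intensities of 1435305_at were 3564, 6524 and 5204 on the fluoxetine-titled and 3384, 6813 and 5947 on the vehicle-titled arrays. Those of 1437560_at were 960, 1756 and 1565 on the fluoxetine-titled and 889, 1599 and 1560 on the vehicle-titled arrays. In pair 3, where 1420838_at and 1435196_at differed most, these had differences of -0.19 and 0.0053. Their differences of means were -0.060 ± 0.32 and 0.083 ± 0.31 (SE), and between 97.6% and 98.3% of their sum of squares over the 6 arrays lay between array numbers. The log2 ratio of 1420838_at to 1435305_at within an array was -0.60 and -0.48 on fluoxetine and vehicle arrays 1, -1.05 and -1.18 on arrays 2, and -0.96 and -1.67 on arrays 3. The drop on vehicle array 3 was thus not shared by all probe sets of the gene.

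The fifth probe set tested and the one of highest mean, 1458622_at, had 4802, 7635 and 5564 on the fluoxetine-titled and 4762, 6077 and 5130 on the vehicle-titled arrays. It was higher in the fluoxetine-titled array of all 3 pairs (0.012, 0.33 and 0.12), as was 1437560_at (0.11, 0.13 and 0.0053), beside 10.9% of all probe sets kept. The difference of means of 1458622_at was 0.15 ± 0.20 (SE), with an interval from 0.800-fold to 1.54-fold. Without fluoxetine array 2 it was -0.035, and without pair 2 it was 0.065.

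**Figure D3:**
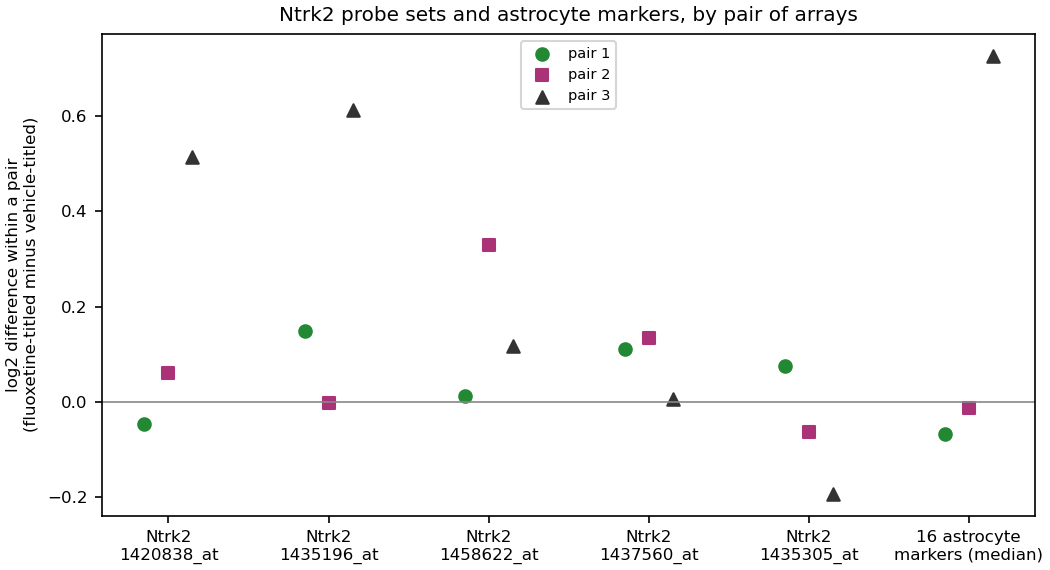
Log2 difference within each pair of arrays, fluoxetine-titled minus vehicle-titled, for the 5 Ntrk2 probe sets tested and for the median of 16 astrocyte markers. In pair 3 (triangles) the probe sets 1420838_at and 1435196_at stand at 0.51 and 0.61 and the astrocyte median at 0.73, while 1437560_at and 1435305_at stand at 0.0053 and -0.19.

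TrkC, the receptor of neurotrophin-3, is encoded by Ntrk3, for which 5 of 8 probe sets were tested and the other 3 lay between 6.43 and 47.9. The probe set of highest mean, 1433825_at, had 1366, 1398 and 939 on the fluoxetine-titled and 1383, 1533 and 1041 on the vehicle-titled arrays. It was lowest on the arrays numbered 3 and lower in the fluoxetine-titled array of every pair, by -0.018, -0.13 and -0.15. The difference of means was -0.10 ± 0.22 (SE), with an interval from 0.653-fold to 1.33-fold, and it was 0.086 without fluoxetine array 3 and -0.076 without pair 3. The probe set 1425071_s_at, with 119, 139 and 82.1 against 116, 128 and 103, was also lowest on the arrays numbered 3, and its difference was -0.059 ± 0.21 (SE).

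The remaining Ntrk3 probe sets tested were lowest on the arrays numbered 1. The widest spread of any member was that of 1422329_a_at, with 55.7, 243 and 139 on the fluoxetine-titled and 84.4, 197 and 144 on the vehicle-titled arrays. Its highest value was 4.36 times its lowest, and its difference of means, -0.12 ± 0.54 (SE), had an interval from 0.379-fold to 2.24-fold. The intensities of 1447723_at were 61.1, 144 and 143 on the fluoxetine-titled and 71.2, 169 and 128 on the vehicle-titled arrays, a difference of -0.098 ± 0.43 (SE). For 1455917_at they were 275, 459 and 344 on the fluoxetine-titled and 282, 439 and 353 on the vehicle-titled arrays. Its difference was -0.0042 ± 0.24 (SE), and 99.3% of its sum of squares lay between array numbers.

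Most of the variation of both Trk receptor genes lay between array numbers. The share of the sum of squares was between 63.6% and 98.3% for the Ntrk2 and between 82.8% and 99.3% for the Ntrk3 probe sets, beside a median of 69.9% over all probe sets kept. The arrays numbered 1 lay below the mean of all 6 for 4 of the 5 Ntrk2 probe sets, the lowest at -0.54, and above it for both Bdnf probe sets. The labels do not say what a number stands for.

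**Figure D4:**
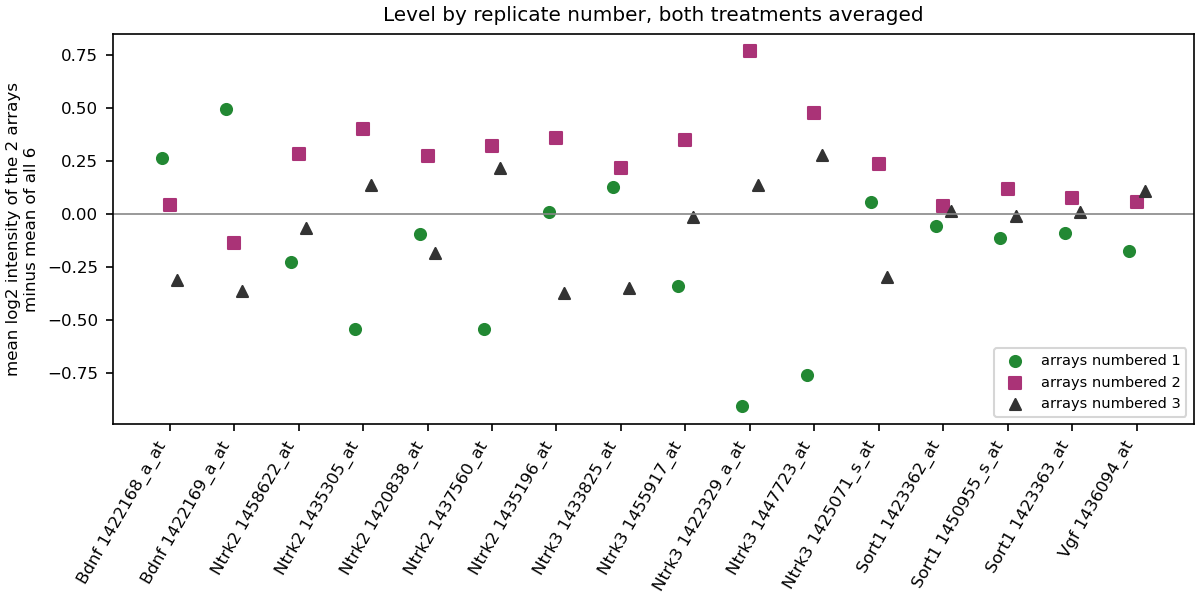
Mean log2 intensity of the 2 arrays of each replicate number minus the mean of all 6 arrays, for the 16 probe sets tested. The arrays numbered 1 stand highest for Bdnf (0.27 and 0.50) and lowest for 1422329_a_at and 1447723_at of Ntrk3 (-0.91 and -0.76). Among the Ntrk2 probe sets they stand lowest for 1435305_at (-0.54), and the Sort1 probe sets stay close to 0.

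Sortilin, which sorts the BDNF precursor into the regulated secretory pathway and pairs with p75, is encoded by Sort1. Its probe set of highest mean, 1423362_at, had 3081, 3059 and 3364 on the fluoxetine-titled and 3303, 3806 and 3358 on the vehicle-titled arrays. The fluoxetine-titled array was lower in pairs 1 and 2 (-0.10 and -0.32), and in pair 3 the difference was 0.0027. Only 16.0% of its sum of squares lay between array numbers, the smallest share of the 16 members tested. Its difference of means was -0.14 ± 0.13 (SE), with an interval from 0.738-fold to 1.12-fold. The other probe sets of the gene had differences of the opposite sign, 0.061 ± 0.14 for 1450955_s_at and 0.086 ± 0.15 for 1423363_at (SE). The intensities of 1423363_at were 200, 188 and 186 on the fluoxetine-titled and 153, 204 and 188 on the vehicle-titled arrays, where vehicle array 1 was the lowest. Those of 1450955_s_at were 232, 252 and 242 against 207, 262 and 230, again lowest on vehicle array 1.

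The p75 receptor gene, Ngfr, which in the adult forebrain is best known from cholinergic neurons of the basal forebrain, was not tested. Its probe set of highest mean, 1454903_at, had 32.0, 51.9 and 51.1 on the fluoxetine-titled and 41.0, 41.1 and 41.8 on the vehicle-titled arrays. The group means, 45.0 ± 11.2 and 41.3 ± 0.436 (SD, n = 3), lay just under the filter of 50. The other Ngfr probe sets stayed between 3.97 and 5.70.

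The other genes of the pathway were read with 1 probe set per gene. The 5 lists had 4, 14, 14, 24 and 9 genes tested, in the order given below. Of all these, 0 passed an adjusted p of 0.05 in limma in either direction. Only 1, Rps6ka3, had an unadjusted p under 0.05, beside 0.591% of all 10830 genes. With the array number as a block there were 2 at an unadjusted p under 0.05, Rps6ka3 and Nck1, beside 3.41% of all genes. Of the sortilin family and other neurotrophins and receptors, 4 of 7 genes were tested, with 1 positive and 3 negative differences and a median of -0.12, beside -0.0068 for all genes, of which 47.8% had a positive difference. Sorcs1 had 701, 704 and 596 on the fluoxetine-titled and 771, 751 and 698 on the vehicle-titled arrays, lower in every pair, with a difference of -0.15 ± 0.13 (SE). A negative difference in all 3 pairs was seen for 13.1% of all genes. Sorcs2 and Sorl1 had differences of -0.16 ± 0.20 and 0.053 ± 0.13. Ntf5, the gene of neurotrophin-4, lay below the filter.

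Of the enzymes and vesicle proteins that process and store neurotrophin and peptide precursors, 14 of 18 were tested, 6 with a positive and 8 with a negative difference (median -0.044). Furin, the convertase of the secretory pathway that cuts neurotrophin precursors, had 46.6, 82.5 and 60.6 on the fluoxetine-titled and 48.3, 55.9 and 56.0 on the vehicle-titled arrays. It stood highest on fluoxetine array 2, and its difference was 0.21 ± 0.22 (SE). The difference was 0.12 ± 0.16 for Plat, whose protease makes the plasmin that cleaves proBDNF, and -0.14 ± 0.14 for Cadps2, which primes dense-core vesicles. In every pair the fluoxetine-titled array had the lower value of Pcsk1n, which encodes an inhibitor of the convertase Pcsk1 (-0.098, -0.12 and -0.25), with a difference of means of -0.16 ± 0.16 (SE).

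Of 20 genes listed as Trk receptor adaptors, 14 were tested, 6 with a positive and 8 with a negative difference (median -0.014). Shc1, Shc2, Shc3, Shc4 and Sh2b2 lay below the filter and Frs2 had no probe set, so these adaptors were not read. The SH2 adaptor gene Nck1 was lower in every pair (-0.33, -0.16 and -0.36) and the groups overlapped, with a difference of means of -0.29 ± 0.23 (SE) and an unadjusted p in limma of 0.250, or 0.0299 with the block. Plcg1, the phospholipase that TrkB activates, had -0.14 ± 0.16, and the Ras activator gene Sos1 and the docking protein gene Gab2 had 0.14 ± 0.20 and 0.12 ± 0.19, with their largest pair differences in pair 3 (0.65 and 0.43). That is also the pair in which astrocyte markers differed by a median of 0.73, and the part of other cells in these values was not tested.

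Of the kinases and CREB factors downstream, 24 of 32 were tested, 12 with a positive and 12 with a negative difference (median -0.0022). Rps6ka3, which encodes the ERK-activated CREB kinase RSK2, had 679, 702 and 680 on the fluoxetine-titled and 611, 532 and 493 on the vehicle-titled arrays. The lowest fluoxetine-titled value was above the highest vehicle-titled one, as for 1.64% of all probe sets kept. Its difference was 0.34 ± 0.13 (SE), and it did not pass in limma (adjusted p = 1.00, unadjusted p = 0.0373). Braf, the kinase between Ras or Rap and MEK, was lower in every pair (-0.11, -0.40 and -0.23), a difference of -0.25 ± 0.14 (SE). Mapk7, which encodes ERK5, and Pik3ca had 0.22 ± 0.21 and -0.17 ± 0.18.

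Of the p75 partners, 9 of 11 were tested, 4 with a positive and 5 with a negative difference (median -0.016). Traf6 and Bex3, which bind the receptor's intracellular part, had -0.17 ± 0.19 and -0.13 ± 0.20 (SE), and the Nogo receptor gene Rtn4r and the kinase gene Irak1 had 0.11 ± 0.13 and 0.074 ± 0.12.

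**Figure D5:**
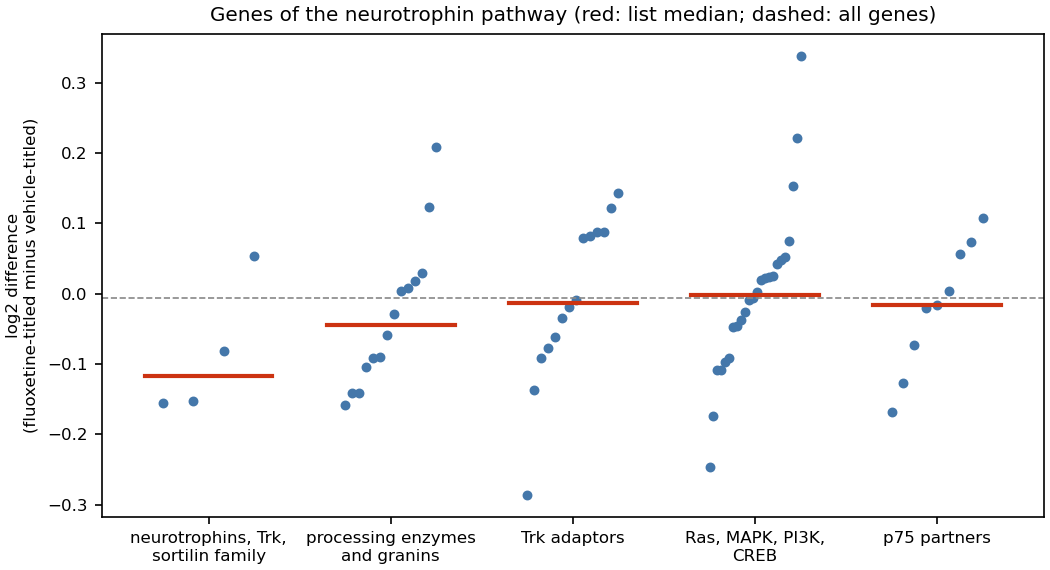
Log2 difference of each tested gene in the 5 pathway lists, fluoxetine-titled minus vehicle-titled (points, 1 probe set per gene), with the list median in red and the median of all genes dashed. The list medians lie between -0.12 and -0.0022, and the highest point is Rps6ka3 at 0.34.

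The genes whose log2 intensity followed each member most closely over the 6 arrays are given as a description, since the arrays share array numbers and the best of 10825 genes has a high correlation by selection. For Bdnf they were Psma2, Rpn2 and Pcca (Pearson r between 0.993 and 0.998), and 254 genes had an r over 0.9. For Vgf they were Ppp1ca, Nop14 and Mrpl46 (r between 0.995 and 0.998), with 362 genes over 0.9. For Ntrk2 they were Galnt6, Tmem184b and Pigk (between 0.987 and 0.990), for Ntrk3 Alg8, Ythdc2 and Rab23 (between 0.984 and 0.994), and for Sort1 Khdc4, Spring1 and Itpkb (between 0.972 and 0.987), with 124, 154 and 34 genes over 0.9. Without the 2 arrays farthest from the member's median, the lowest r was 0.988 for the Bdnf, 0.995 for the Vgf, 0.904 for the Ntrk2, 0.899 for the Sort1 and 0.704 for the Ntrk3 genes, the last for Ythdc2.

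Of 12 genes listed as markers of layer 5 subcortical projection neurons, 9 passed the filter, Chrna2 and Diaph3 lay below it, and Etv1 had no probe set. The list was not drawn from the labelled cells. Colgalt2, the gene whose regulatory region drives the tag, lay between 709 and 986. The median difference of these markers was -0.074, with pair medians of 0.072, -0.091 and -0.14, and 2 of the 9 were positive in pair 3. Their summed intensity lay between 43668 and 54605 on the fluoxetine-titled and between 46258 and 58840 on the vehicle-titled arrays. In these sums Pcp4 alone gave between 24332 and 32186 on the fluoxetine-titled and between 26444 and 37135 on the vehicle-titled arrays. In pair 3 the differences of Bdnf 1422168_a_at, Vgf and Ntrk3 1433825_at were -0.32, -0.17 and -0.15. Those of Ntrk2 1458622_at and Sort1 1423362_at in the same pair were 0.12 and 0.0027. The part of the labelled cells in these values was not tested. The median intensity of an array lay between 23.03 and 23.45.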

How the data were processed

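RNA of 6 cortical purifications of tagged ribosomes (TRAP), 3 per treatment, was amplified in 2 cycles from 15 ng and hybridised to 1 array each, per the labels' protocols. The authors deposited linear GCRMA intensities, 1 per probe set and array, per the submitters' processing notes. This method models background from the bases of each probe and makes the arrays comparable, and its version is not given in the sources used here. Values of single arrays were used, although the design text mentions averages.

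The table has 45101 probe sets. The 64 for controls were not used, and 19073 with a mean of at least 50 in 1 or both groups were kept. The platform annotation gave 1 symbol to 34945 probe sets, several to 932 and none to 9160, and RefSeq identifiers changed 0 symbols. Log2 intensities were compared between the groups (two-sided) with limma 3.58.1 in R 4.3.3, through lmFit and eBayes, and p-values were adjusted by Benjamini-Hochberg across the probe sets kept. The code was tested on simulated data. P-values measure the spread between these arrays, for which the labels name biological replicates and no animals.

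Arrays of equal number were taken as pairs, though the labels do not say what a number stands for. Deviations from the group means correlated at 0.74, 0.60 and 0.50 for arrays of equal number. For arrays of unequal number the correlations lay between -0.59 and 0.26, the highest for fluoxetine array 3 with vehicle array 2. A fit with the number as a block was an alternative, with other filters, a floor, other scalings, a trend and arrays left out. Named genes were every member, of each pathway list the 2 genes of largest difference in each direction, and the 3 genes most correlated with each tested member. Aqp4, Gja1, Slc1a2, Plpp3, S100b, Clu, Pcp4 and Colgalt2 were named after their values were seen. Members and lists were chosen with earlier results of these data known.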

Additional observations from a re-analysis of the deposited data

How the results depend on the processing

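Under each alternative run, limma gave 0 probe sets past an adjusted p of 0.05. With the array number as a block, the differences keep their size because the design is balanced, and their standard errors were between 0.10 and 0.17 for the 16 members, in place of 0.13 to 0.54. The blocked difference was -0.16 ± 0.11 (SE) for Bdnf 1422168_a_at, 0 members and 0 of all probe sets passed (smallest adjusted p = 0.993), and 0 members had an unadjusted p under 0.05, beside 4.02% of all probe sets. Among the pathway genes, the block brought Nck1 under an unadjusted p of 0.05 (limma, 0.0299), and it changed no adjusted call. With no filter, a filter on both groups, a floor of 50, quantile or 75th percentile scaling, or an intensity trend, every tested member kept the sign of its difference. The median of the p75 partners was 0.00073 under quantile normalization, and that of the kinases and CREB factors was 0.0094 under it and 0.0012 under 75th percentile scaling.

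The sign of a member turned in 25 of 96 refits without 1 array, which leave the array numbers unequal between the groups, and in 6 of 48 without a whole pair. The cause was not tested. The difference ranged over -0.32 to 0.037 for 1422168_a_at, -0.49 to 0.041 for 1422169_a_at (Bdnf), -0.035 to 0.30 for 1458622_at, -0.36 to 0.18 for 1435305_at, -0.00033 to 0.34 for 1420838_at, -0.19 to 0.35 for 1437560_at, -0.022 to 0.50 for 1435196_at (Ntrk2), -0.26 to 0.086 for 1433825_at, -0.20 to 0.17 for 1455917_at, -0.61 to 0.46 for 1422329_a_at, -0.45 to 0.31 for 1447723_at, -0.22 to 0.16 for 1425071_s_at (Ntrk3), -0.21 to -0.049 for 1423362_at, -0.021 to 0.15 for 1450955_s_at, -0.063 to 0.18 for 1423363_at (Sort1) and -0.21 to -0.022 for 1436094_at (Vgf). The list medians ranged over -0.14 to -0.040 for the sortilin family and other neurotrophins, -0.089 to 0.0040 for processing enzymes and granins, -0.054 to 0.018 for Trk adaptors, -0.059 to 0.028 for kinases and CREB factors, -0.089 to 0.034 for p75 partners. With 3 arrays per group, the intervals of the members reached from 0.379-fold to 2.24-fold without the block and from 0.691-fold to 1.51-fold with it.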
